A study of Bos taurus with 16 samples.

Results

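In bovine endometrium, 89 of 27607 gene IDs had their highest level on day 14 after insemination, at least 2 times that of each of days 5, 10 and 18. Levels were CPM, the reads of a gene scaled to the same total of gene reads in every library. A day was given the median CPM of its 4 libraries plus 0.5, and a gene was kept where the day 14 value was at least 2 times that of every other day and the day 14 median was at least 2 CPM. All 16 libraries entered this choice, so day 14 against any other day is described below and not tested. Only day 10 against day 5, day 18 against day 10 and day 18 against day 5 were tested.

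The endometrium lines the uterus. Its glands and surface epithelium secrete histotroph, a mixture of proteins, lipids, sugars and amino acids that feeds the embryo before it attaches. Progesterone from the corpus luteum drives most of this secretion after ovulation, and in cattle the embryo elongates within the period sampled here and its trophoblast then secretes interferon tau. Genes are given as Ensembl IDs without symbols, and 0 of the 27607 IDs were found in the reference table used here, so none of the 89 genes could be given a symbol, a role or a sequence, and markers of cell types could not be examined.

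The animals were virgin Holstein heifers of at least 7 months and 340 kg, and all were treated alike before biopsy. They received a GnRH analog (Fertagyl), an intravaginal progesterone device (Eazi-Breed) and 2 doses of the prostaglandin analog Estrumate, and were then inseminated at a fixed time with Holstein semen. Endometrium was biopsied on day 5, 10, 14 or 18, with 4 animals per day drawn at random. Whether a given animal carried an embryo is not stated in the labels, and no group was left uninseminated among these samples. A biopsy mixes epithelium, stroma, vessels and immune cells, so a lower level may stand for fewer cells of a type or for less RNA per cell, which cannot be told apart.

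Gene reads per library ranged over 18959090 to 24291006. Among 13594 genes with a day 14 median of at least 2 CPM, the mean Pearson correlation with the other libraries was lowest for day 5 replicate 3, at 0.830, and day 18 replicate 2, at 0.826, against 0.892 to 0.927 for the other 14. The library most alike was of another day for 9 of the 16 libraries. Day 18 replicates 2 and 3 were most alike to day 5 replicates 2 and 4, at 0.871 and 0.978, and day 18 replicates 1 and 4 to day 14 replicates 3 and 1, at 0.959 and 0.939. The median of all these genes lay 0.36 below that of its own day in day 5 replicate 3 on the log2 scale, and 0.21 below in day 18 replicate 2. The tests and main counts are also given without day 5 replicate 3 and day 18 replicates 2 and 3, a set of 3 that was known from earlier results of these data. Over all genes day 18 replicate 3 had a mean correlation, 0.914, within the range of the other libraries.

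The ratio of the day 14 value to the highest other day ran from 2.01 to 13.3 over the 89 genes, with a median of 2.66, and was at least 3 in 26 genes and at least 5 in 7. The day 14 median ran from 2.10 to 3941 CPM and was at least 100 CPM in 21 genes. The next highest day was day 5 in 7 genes, day 10 in 45 and day 18 in 37. Close to the threshold, the 3 genes just inside had ratios of 2.01, 2.04 and 2.04, and the 3 just outside had 1.99, 2.00 and 2.00. Together the 89 genes took up 0.193% ± 0.035 of gene reads in day 5 libraries, 0.353% ± 0.138 in day 10 libraries, 1.21% ± 0.36 in day 14 libraries and 0.707% ± 0.734 in day 18 libraries (mean ± SD, n = 4 per day). The SD of day 18 exceeded its mean, and its 4 libraries were at 0.846%, 0.125%, 0.167% and 1.69%.

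**Figure D1:**
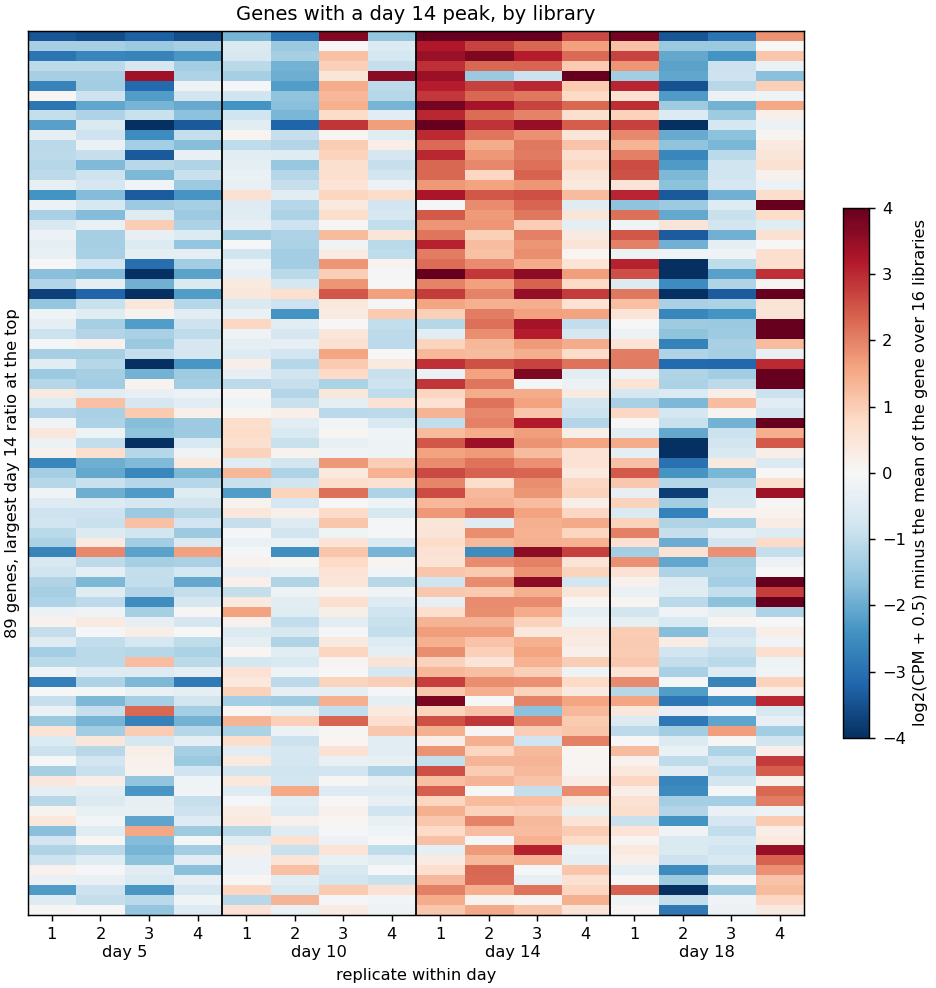
Level of each of the 89 genes (rows) in each of the 16 libraries (columns, grouped by day), as log2(CPM + 0.5) minus the mean of that gene over all libraries; colours are capped at -4 and 4. Day 14 is high in most rows because the genes were chosen for it, replicate 4 is its lowest column in 64 of the rows, and day 18 splits into high replicates 1 and 4 and low replicates 2 and 3.

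The gene with the largest ratio was ENSBTAG00000046768. It was at 0.0491, 0, 0.105 and 0 CPM in the 4 day 5 libraries, and at 1.14, 0.286, 76.2 and 1.52 CPM on day 10. On day 14 it was at 225, 127, 157 and 36.4 CPM, and on day 18 at 82.9, 0.0484, 0.276 and 20.1 CPM, in the order of replicates 1 to 4. Day 14 overlapped with day 10 through replicate 3 of day 10 and with day 18 through replicate 1 of day 18. Its ratio to the highest other day, day 18, was 13.3. The ratio was 2.74 without both day 18 replicates 2 and 3, 6.91 without 1 of them, and 77.8 without replicate 1 or replicate 4.

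ENSBTAG00000015924 had the next largest ratio, 8.33, at a much lower level. The order of these leading genes depended on the setting. By means the ratio was 6.02 for ENSBTAG00000015924 and 5.20 for ENSBTAG00000046768, and it was 3.52 and 2.74 without day 18 replicates 2 and 3. For ENSBTAG00000015924 it was also 13.7 with 0.1 CPM added in place of 0.5, 3.84 with 2 CPM added and 5.66 without 1 of day 18 replicates 2 and 3. It was at 0 to 0.0491 CPM in the day 5 libraries and at 0 to 0.864 CPM on day 10. On day 14 it was at 12.4, 8.44, 6.37 and 3.86 CPM, and on day 18 at 2.59, 0, 0 and 0.897 CPM. All 4 day 14 libraries lay above the other 12. This held for 3 of the 89 genes, or 3.37%, against 0.132% of the 13594 genes with a day 14 median of at least 2 CPM, a share that the choice of genes raises. The other two genes that did so, at ranks 49 and 55 by ratio, were at 7.09 to 19.8 CPM and at 1.88 to 4.00 CPM on day 14.

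The most abundant of the genes was ENSBTAG00000004924. It was at 459, 285, 11.2 and 126 CPM on day 5 and at 743, 288, 1313 and 837 CPM on day 10. On day 14 it was at 4854, 3739, 4143 and 2859 CPM, and on day 18 at 2708, 72.8, 71.2 and 5004 CPM. Its highest library was thus of day 18, and 2 day 18 libraries were below every day 10 library. The ratio of day 14 to the highest other day was 2.83 with all libraries. Leaving out day 18 replicate 2 or replicate 3 made it 1.46, leaving out both made it 1.02, and leaving out replicate 1 or replicate 4 made it 4.99.

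**Figure D2:**
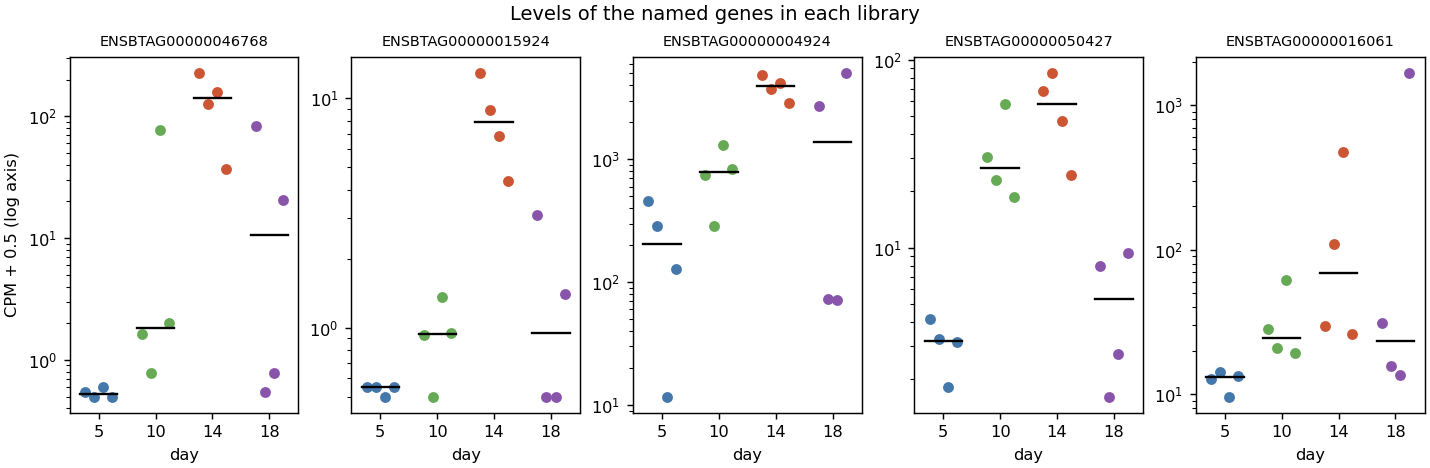
CPM + 0.5 on a log axis for the 5 genes named, with 1 point per library and a line at the median of each day; replicates 1 to 4 run from left to right within a day. Day 18 replicates 1 and 4 lie above replicates 2 and 3 in all 5 genes, and ENSBTAG00000016061 reaches 1664 CPM in day 18 replicate 4.

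The label of a day 14 peak held for the day medians that defined it and less often for other readings of the same libraries. By the mean of the 4 libraries, day 14 was highest in 77 of the 89 genes and day 18 in 12, against 27.1% and 24.9% of the 13594 genes with a day 14 median of at least 2 CPM. The single highest library was of day 5 in 2 genes, of day 10 in 0, of day 14 in 63 and of day 18 in 24. Over those 13594 genes, the highest library was of day 14 in 20.7% and of day 18 in 39.0%. Without day 5 replicate 3 and day 18 replicates 2 and 3, the mean was highest on day 14 in 64 of the 89 genes and on day 18 in 25, against 16.6% and 36.8% of all genes. The highest library was then of day 14 in 66 and of day 18 in 23. Choosing by means in place of medians gave 62 genes, of which 48 were among the 89. Scaling by TMM gave 98 genes with 86 of the 89 among them, and scaling by RLE 101 with the same number kept.

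Within day 14 the genes were not equally high in all animals. The genes were chosen on the values of these same libraries, which can shape the order of libraries within a day. Shares set beside all genes within days 14, 10 and 18 are therefore descriptions. Replicate 4 was the lowest of the 4 libraries in 64 of 89 genes (71.9%), against 24.7% of all 13594 genes. The median of the 89 genes in replicate 4 lay 0.96 below the day 14 median on the log2 scale, while that of all genes lay 0.03 above. In replicates 1, 2 and 3 the 89 genes lay 0.18, 0.10 and 0.14 above it. The mean of log2(CPM + 0.5) over the 89 genes was 4.95, 4.87, 5.01 and 4.02 in day 14 replicates 1 to 4. Reads with no gene feature made up 33.4% in replicate 4, the highest share of any library, and 30.1%, 27.6% and 29.7% in replicates 1 to 3, and their part in this was not tested. By this mean replicate 4 lay between day 10 replicate 3, at 3.80, and day 18 replicates 1 and 4, at 4.08 and 4.31.

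Within day 10, replicate 3 was the highest library in 53 of the 89 genes (59.6%), against 24.5% of all 13594 genes. Its median over the 89 genes lay 0.69 above the day 10 median on the log2 scale, against 0.00 over all genes. Replicate 2 was lowest in 49 genes (55.1%), against 21.0% of all genes, and its median lay 0.50 below. Day 10 replicate 3 was at or below 0.5 times the day 14 value in 50 of the 89 genes, against 68 to 83 for the other day 10 libraries. Among the 20 genes with the largest ratios, day 10 replicate 3 was the highest of its day in 18 and day 14 replicate 4 the lowest of its day in 19. The median Pearson correlation of 2 of these genes over the 16 libraries was 0.60, and 0.43 after the mean of each day was subtracted. Both are descriptions over libraries that share their depth and day. The genes were chosen for the same day 14 peak in these libraries, which raises the first value. Pairs of other genes were not examined.

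**Figure D3:**
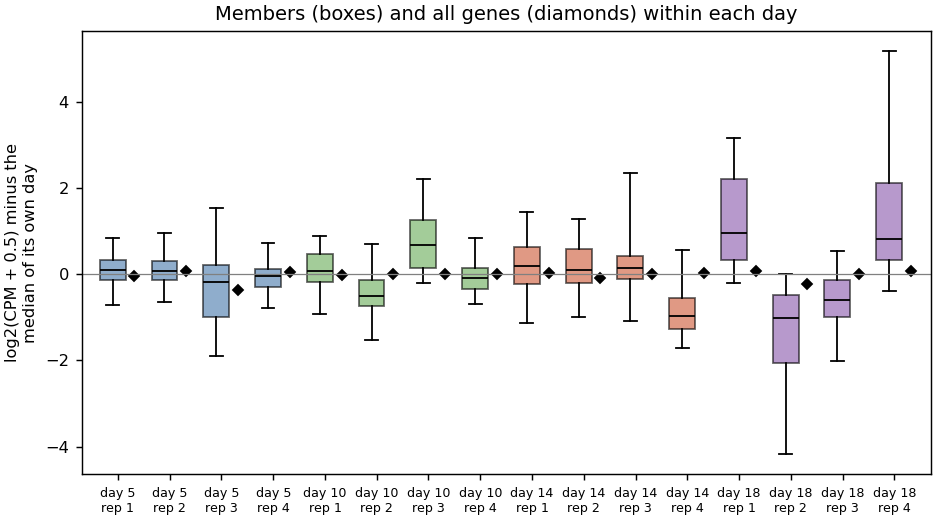
For each library, log2(CPM + 0.5) minus the median of its own day, over the 89 genes (boxes span the middle 50%, whiskers the 5 to 95 percentiles) and the median over 13594 genes (diamonds). Boxes of day 10 replicate 3 and day 18 replicates 1 and 4 lie above 0, those of day 10 replicate 2, day 14 replicate 4 and day 18 replicates 2 and 3 below, and the diamonds stay between -0.36 and 0.08.

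Day 18 parted into 2 high and 2 low animals for these genes. Replicates 1 and 4 both lay above replicates 2 and 3 in 69 of 89 genes (77.5%), against 29.9% of all 13594 genes. Replicate 2 was the lowest in 54 genes (60.7%), against 51.1% of all genes. The share of reads with no gene feature split the same way, at 30.4% and 30.7% in replicates 1 and 4 and 24.6% and 24.7% in replicates 2 and 3, against 23.1% to 26.3% on day 5. Its part in the split was not tested. The SD of log2(CPM + 0.5) over the 4 day 18 libraries had a median of 1.55 over the 89 genes and 0.46 over all genes. These medians were 0.62 and 0.42 for day 5, 0.68 and 0.24 for day 10, and 0.78 and 0.28 for day 14. The rule chose genes that differ between these same libraries, which can raise their SD above that of all genes. The SDs and the split are therefore descriptions. Replicates 2 and 3 were at or below 0.5 times the day 14 value in 87 and 84 of the genes. Replicate 1 was so in 33 genes and replicate 4 in 47, while 17 and 23 genes were at or above the day 14 value in these libraries.

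The day 18 median of most of these genes therefore fell between the high and the low animals, and the choice of genes depended on which of them were included. With replicate 2 left out 68 genes passed the same rule, 62 of them among the 89, and with replicate 3 left out 64 passed, again with 62 among the 89. With both left out 26 of the 89 remained and no gene was added. Leaving out day 5 replicate 3 as well gave 25 genes, 24 of them among the 89. Without replicate 1 or without replicate 4 the number was 151 in each case, with 89 and 87 of the 89 among them. Which of these day 18 animals stands for the day was not tested. Over all genes replicate 2 stood apart and replicate 3 did not.

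**Figure D4:**
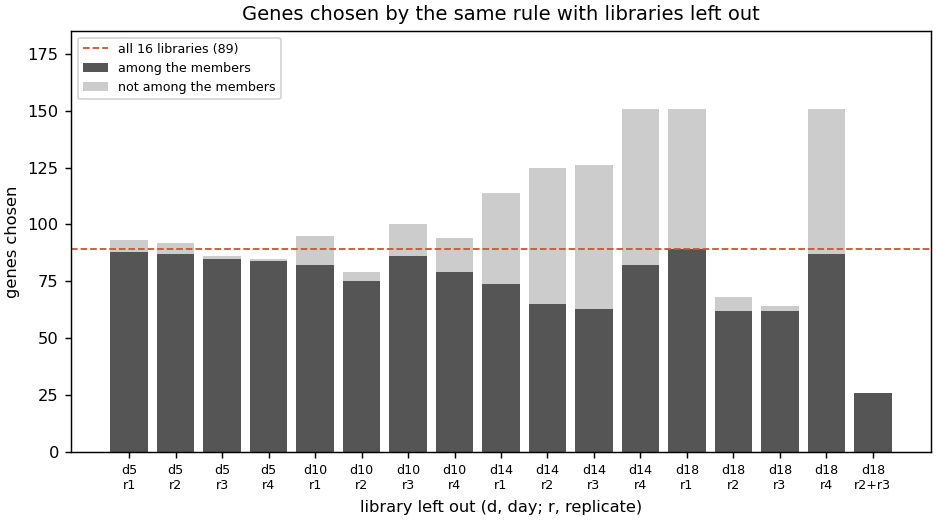
Number of genes chosen by the same rule with 1 library left out, and with day 18 replicates 2 and 3 left out (last bar), divided into genes among the 89 (dark) and not among them (light); the dashed line marks 89. The last bar is the lowest at 26, and the highest are at 151.

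The 26 genes that remained without day 18 replicates 2 and 3 had a median day 14 level of 14.2 CPM, from 2.24 to 619 CPM. Their ratios with those libraries left out ran from 2.02 to 6.22, with a median of 2.46. In 24 of them the highest of the 16 libraries was of day 14, and in none was day 18 replicate 4 above every day 14 library. The rule allows no other result for day 18 replicate 4 in these genes. Their day 14 median had to exceed the sum of the day 18 libraries that were left. The same limit favours a day 14 library as the highest, so neither count is separate evidence of a day 14 peak. The 26 genes held 8 of the 14 genes whose ratio was at least 4 with all libraries, ENSBTAG00000046768 and ENSBTAG00000015924 among these. Day 14 replicate 4 was again the lowest of its day in 20 of the 26, and day 10 replicate 3 the highest of its day in 16. Over all 16 ways to leave out a single library, 35 of the 89 genes passed every time, and 16 of these were among the 26.

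In 16 of the 89 genes (18.0%), day 18 replicate 4 was the highest of all 16 libraries, against 1638 of all 13594 genes (12%). These genes were set apart after their values were seen and were not tested. Their median was 379 CPM in day 18 replicate 4, and 14.2, 5.20 and 6.11 CPM in day 18 replicates 1, 2 and 3. In 10 of them it was at least 2 times every other library. The order within day 14 also differed in these genes: their median was 16.5, 51.4, 90.5 and 15.6 CPM in day 14 replicates 1 to 4, with replicates 2 and 3 both above replicates 1 and 4 in 11 of 16. This order was found in 10 of the other 73 genes and in 16.2% of all 13594 genes. The medians of those 73 genes were closer, at 21.8, 19.8 and 23.7 CPM in day 14 replicates 1 to 3, and lowest in replicate 4. ENSBTAG00000016061, also picked after its values were seen, was at 29.1, 109, 475 and 25.5 CPM on day 14 and at 30.8, 15.1, 13.1 and 1664 CPM on day 18. It was at 9.15 to 13.7 CPM on day 5 and at 18.8 to 61.5 CPM on day 10. Its mean was 160 ± 214 CPM on day 14 and 431 ± 822 CPM on day 18 (SD, n = 4 each), so the ratio of day 14 to the highest other day was 0.371 by means and 2.82 by medians. By medians it was 1.20 without day 14 replicate 2 or replicate 3, 4.45 without day 14 replicate 1 or replicate 4, and 0.082 without both day 18 replicates 2 and 3.

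To see how a day 14 library behaved that had no part in the choice, the rule was applied without each of them in turn. Without replicate 1, 114 genes were chosen, and in 50 of them (43.9%) the library left out was at least 2 times the value of each other day. For replicate 2 it was 50 of 125 genes (40.0%), and for replicate 3 52 of 126 (41.3%). For replicate 4 it was 16 of 151 (10.6%). Over all genes with at least 2 CPM in the library concerned, the shares were 2.19%, 2.58%, 1.58% and 1.46% for replicates 1, 2, 3 and 4. The chosen genes and the shares over all genes use the same values of days 5, 10 and 18, so only the day 14 library was independent of the choice. The rule chose genes for values on those days that were low beside day 14, which raises their shares above those of all genes. The difference is therefore a description and not a test of a day 14 peak. With day 5 replicate 3 and day 18 replicates 2 and 3 also left out fewer genes were chosen. The library held out then reached 2 times each other day in 14 of 30 genes for replicate 1, 14 of 25 for replicate 2, 15 of 39 for replicate 3 and 2 of 40 for replicate 4, against 0.707%, 1.53%, 0.388% and 0.830% of all genes.

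Days 5, 10 and 18 were then compared with each other, since the rule set no order among them. All 89 genes were among the 16331 with enough reads to be tested. On day 10 against day 5, 1 of the 89 genes rose and 0 fell by edgeR's quasi-likelihood test with Benjamini-Hochberg adjustment over all genes, where 0.0980% of all genes rose and 0.0429% fell. At an unadjusted p under 0.05, 14 of the 89 (15.7%) were higher on day 10 and 0 lower, against 8.67% and 11.2% of all genes. The log2 fold change was above 0 in 70 of the 89, with a median of 0.72, against a median of -0.02 over all genes. Leaving out day 10 replicate 3 brought the median of the 89 to 0.38, and leaving out day 10 replicate 2 to 0.87. DESeq2 called 8 of the 89 higher and 0 lower (3.19% and 4.08% of all genes), and limma-voom 7 higher and 0 lower (10.5% and 12% of all genes). Without day 5 replicate 3 and day 18 replicates 2 and 3 edgeR called 10 higher and 0 lower (3.86% and 5.27% of all genes).

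The gene called was ENSBTAG00000050427. It was at 29.8, 22.3, 57.9 and 18.0 CPM in the day 10 libraries, and at 3.68, 2.75, 1.31 and 2.65 CPM in the day 5 libraries, with no overlap between the days. The log2 fold change was 3.51 ± 0.61 (SE, adjusted p = 0.0491 by edgeR). It was at 68.0, 84.1, 46.6 and 23.8 CPM on day 14 and at 7.49, 1.11, 2.21 and 8.81 CPM on day 18, so it had risen by day 10 and was low again on day 18. The difference of day 18 from day 10 was -2.72 ± 0.58 on the log2 scale and did not pass (SE, adjusted p = 0.120 by edgeR). With the replicate number as a block 0 of the 89 genes were called between days 5 and 10. The adjusted p of this gene was then 0.117 by edgeR over all days, and 0.0758 by edgeR with days 5 and 10 fitted alone. The call was also lost without any 1 of the 4 day 5 libraries or any 1 of the 4 day 10 libraries, where its log2 fold change ran from 3.06 to 3.73, and without day 14 replicate 1, 2 or 3. It was kept in 11 of 25 alternatives, DESeq2 and limma-voom among them.

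On day 18 against day 10, 0 of the 89 genes rose and 0 fell by edgeR, where 0.0245% and 0.0735% of all genes did. At an unadjusted p under 0.05, 9 were higher and 2 lower on day 18, or 10.1% and 2.25%, against 9.82% and 4.79% of all genes. The median log2 fold change was 0.44, against 0.05 over all genes, and 64 of the 89 were above 0. By the day medians of CPM, however, day 18 was above day 10 in only 40 of the 89. Leaving out day 18 replicate 1 turned this median to -0.20, and leaving out replicate 4 made it 0.075. DESeq2 called 5 higher and 1 lower (3.09% and 1.63% of all genes) and limma-voom 0 (0.0367% and 0.135%), with 2 higher and 1 lower at an unadjusted p under 0.05 (6.69% and 6.31%). Without the same 3 libraries edgeR called 4 higher and 0 lower (0.706% and 1.09%), with a median of 1.12. Of day 18 only replicates 1 and 4, the high libraries, were then left, which favours higher calls.

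On day 18 against day 5, 0 of the 89 genes were called by edgeR, as were 0 of all genes. At an unadjusted p under 0.05, 31 were higher on day 18 and 1 lower, or 34.8% and 1.12%, against 8.10% and 5.55% of all genes. The median log2 fold change was 1.23, against 0.02 over all genes. Limma-voom called 0, with 23 higher and 0 lower at an unadjusted p under 0.05 (9.07% and 9.75% of all genes), and DESeq2 called 14 higher and 0 lower (0.802% and 0.300% of all genes). The result depended on which libraries were included. Without day 18 replicate 3 edgeR called 11 of the 89 higher and 0 lower, against 2.57% and 2.66% of all genes. Without day 5 replicate 3 and day 18 replicates 2 and 3 it called 42 higher and 0 lower (47.2%), against 7.22% and 7.38% of all genes, with a median of 2.07. Day 18 replicates 2 and 3 are the day 18 libraries in which most of these genes were low. Leaving out both therefore favours higher calls on day 18. Leaving out replicate 2 alone gave no call among the 89 by edgeR, as did any other single library except replicate 3. Leaving out day 18 replicate 1 brought the median to 0.57, and leaving out replicate 4 to 0.45. These comparisons share libraries, so their calls are not independent of each other.

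**Figure D5:**
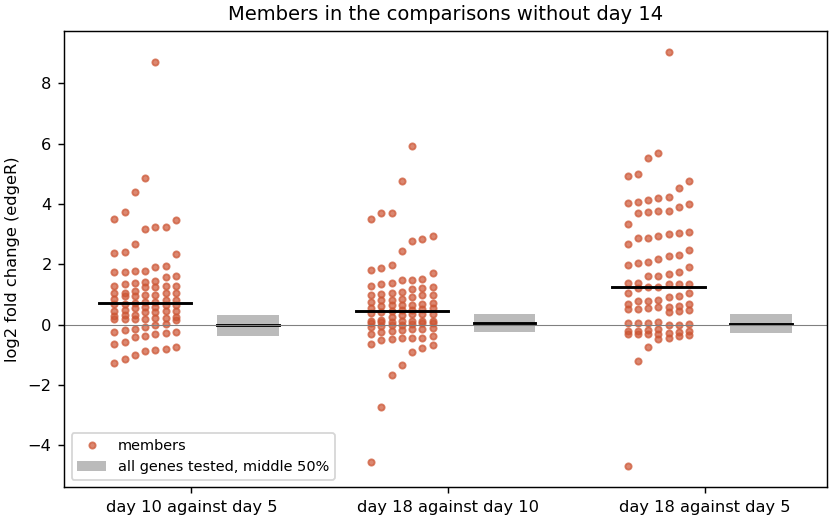
Log2 fold change by edgeR of each of the 89 genes (points, with a line at their median) beside the middle 50% of all 16331 genes tested (grey bars, with a line at the median), for the 3 comparisons without day 14; above 0 is higher on the day named first. The medians of the 89 genes are 0.72, 0.44 and 1.23, and those of all genes lie between -0.02 and 0.05.

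The depth behind these values was uneven. The median of the 89 genes had 364 to 862 reads in a day 14 library, against 41 to 66 in a day 5 library, 118 to 261 in a day 10 library and 23 to 331 in a day 18 library. In 15 genes at least 1 library had 0 reads, and day 18 replicate 2 alone had 0 reads for 9 genes. A count of 0 allows up to 3 reads, which covers counting error only, so in those libraries the level of these genes was not detectable at this depth. On the other strand 11432 reads were counted over the 89 genes, or 0.198% to 2.78% of their reads on both strands per library, with a median of 0.134% per gene. In 2 genes this share was over 10%, at 62.1% and 42.2%. The one with 62.1% was at 1.25 to 4.24 CPM on day 14 and at rank 88 by ratio. By unstranded counts 88 genes passed the rule, 87 of them among the 89.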

How the data were processed

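Raw read counts per gene were deposited by the authors in 1 table per library, in STAR's layout, with an unstranded count and counts for both strands. Per the submitters' processing notes the tools were FastQC, STAR and edgeR, with no version. Build and annotation: not given in the sources used here. The 4 summary lines of each table were left out, as they name no gene. Reads with no gene feature made up 23.1% to 33.4% of the sum of gene, ambiguous and no-feature reads. The strand used held 98.3% to 98.6% of reads on both strands. The line for reads mapping to several places is 0, so values of near-identical genes are uncertain.

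For the tests, counts were filtered with filterByExpr by day, scaled by TMM and tested by edgeR's robust quasi-likelihood test, all 4 days in 1 fit, with a threshold of 0.05. The SE is the log2 fold change divided by the square root of F. The procedure was tested on simulated counts drawn independently per gene, with no library standing apart and no split within day 18. This test does not show how those features affect the calls. The labels give no batch or date, and they do not say that a replicate number is shared across days. For days 5 and 10, the deviations of same-numbered libraries from the mean of their day had correlations over genes of 0.12 to 0.32 for the 4 numbers. The block is therefore given for these days. Differently numbered libraries were not compared, so a link between same-numbered libraries is not shown. For other days the correlations were -0.30 to 0.35, and in each pair of days at least 1 was below 0.1. P-values set the difference between days against the spread between these animals within days, which the main fit estimates from all 4 days. Software was edgeR 4.0.16, DESeq2 1.42.0 and limma 3.58.1 in R 4.3.3, with pandas 2.3.3 and NumPy 2.4.6 in Python.

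The genes and the rules for naming them were chosen with earlier results of these data known. Named were the largest ratios, the highest level and any gene called, with at most 2 IDs per comparison, since no symbols could be matched. The gene and marker lists prepared could not be used for that reason. Alternatives were other scalings, summaries, pseudocounts, thresholds, tools, unstranded counts, the block, and leaving out libraries.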

Additional observations from a re-analysis of the deposited data

Results flagged for a closer look

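Among 28 groups of 4 libraries examined, 4 had a library far outside the range of the remaining 3. For normally distributed values chance gives this in about 1 group in 20. Most groups here were CPM of genes picked for their values, so the 4 cannot be set against that rate. ENSBTAG00000046768 was at 76.2 CPM in day 10 replicate 3, against 0.286 to 1.52 CPM in the other day 10 libraries. ENSBTAG00000016061 was at 1664 CPM in day 18 replicate 4, against 13.1 to 30.8 CPM in the other day 18 libraries. The mean of log2(CPM + 0.5) over the 89 genes was 4.02 in day 14 replicate 4, against 4.87 to 5.01 in the other day 14 libraries. ENSBTAG00000015924 was at 0 CPM in day 5 replicate 3, against 0.0482 to 0.0491 CPM in the others, a difference of 1 read. Outside the measurement used, 11432 reads of the 89 genes lay on the other strand. What sets these libraries apart was not tested.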

How the results depend on the processing

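The number of genes chosen, 89, was 315 with a threshold of 1.5-fold, 26 with 3-fold, 25 without day 5 replicate 3 and day 18 replicates 2 and 3, and 64 to 151 with 1 library left out. Chosen after seeing the data, it was 26 without both low day 18 libraries, 176 without both high ones, and 150 without day 14 replicate 4 and day 10 replicate 3. Other pseudocounts, minimum levels, scalings and unstranded counts gave 60 to 107.

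Members called between days 10 and 5, 1 with all libraries, were 0 with no filter, 8 with DESeq2, 7 with limma-voom, 3 in a fit of only these days, 10 without the same 3 libraries and 0 to 2 with 1 library left out. Over all genes 23 were called with all libraries, 230 in the fit of only these days, and 221 without day 18 replicate 2, which gave the 2. With the replicate block they were 0, also in a fit of only these days. Between days 18 and 10 they were 6 with DESeq2, 4 without the 3 libraries, and 0 with any 1 library left out and with the replicate block. Between days 18 and 5 they were 14 with DESeq2, 42 without the 3 libraries, 0 to 11 with 1 library left out and 0 with the replicate block. The 3 libraries include both low day 18 libraries, so leaving them out favours higher calls on day 18.

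The median log2 fold change of day 18 against day 10, 0.44, ran from -0.20, without day 18 replicate 1, to 0.74 with 1 library left out, and was -0.043 with the replicate block when days 18 and 10 were fitted alone, and 0.15 with the block over all days. The log2 ratio of ENSBTAG00000016061 was -1.43 by means and -3.61 without the 3 libraries or both low day 18 libraries. The cause was not tested. Without the 3 libraries, the genes in which the day 14 library left out reached 2 times each other day were 14, 14, 15 and 2 for replicates 1 to 4. Those counts with all libraries, and counts by order within a day, stayed within 1.5 times under TMM, RLE and unstranded counts. A level under 3 reads in a library cannot be told from 0, which limits what can be said of low genes on days 5, 10 and 18.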
